A study of Bos taurus with 9 samples.

Results

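The glycolytic isozymes of muscle and fat described here are 10 genes, PGAM1, PGAM2, ENO1, ENO3, HK1, HK2, LDHA, LDHB, PFKM and GPI. Every probe set annotated with exactly 1 of these symbols was taken, which gave 13 of the 24016 probe sets tested and 9 of the 10 genes. HK2 had no such probe set and is not reported. PFKM and LDHA had 3 probe sets each and the other 7 genes had 1. The values come from abdominal adipose tissue, subcutaneous adipose tissue and longissimus dorsi muscle, the long muscle of the back, with 3 arrays per tissue. All samples were taken at slaughter from Yan yellow cattle bulls of 24 months that were kept under the same conditions, and no treatment or genotype separates the groups. Per the labels there were 9 bulls, and no label states which animal a sample came from. Sample titles share leading numbers across tissues, and whether arrays with the same number share an animal is not stated. The p-values therefore cover the spread among these arrays, which may be technical in part.

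Glycolysis turns glucose into pyruvate in a chain of cytosolic steps, and lactate dehydrogenase turns pyruvate into lactate when oxygen delivery lags. Several steps have more than 1 enzyme, made by separate genes. PGAM2 and ENO3 make the forms of phosphoglycerate mutase and enolase that mature skeletal muscle uses, while PGAM1 and ENO1 make forms found in most tissues. PFKM is the muscle form of phosphofructokinase, whose step commits the sugar to glycolysis. LDHA makes the M subunit of lactate dehydrogenase, typical of fast muscle, and LDHB the H subunit, typical of heart. HK1 is a widely expressed hexokinase, which traps glucose in the cell by phosphorylation, and GPI makes the isomerase of the step after it, with a single gene for all tissues. In adipose tissue glycolysis also supplies glycerol backbones for fat.

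Each value below is the log2 of a probe set intensity as deposited. A tissue mean under 6 is called near background here, and no exact size can be given for a difference from it. Levels of different probe sets cannot be set against each other. By their brightest probe sets, all 6 measured adipocyte markers were higher on every fat array than on every muscle array, and 6 of 8 skeletal muscle markers were lower. The others were not lower: CKM went against the label, at 9.22 to 10.54 in fat and 8.49 to 8.65 in muscle. MYH7 read 10.81 to 11.78 in fat and 10.45 to 10.81 in muscle. It overlapped, because subcutaneous replicate 1 (10.806) was just below muscle replicate 2 (10.815). Each has a further probe set that was lower on every fat array, CKM at 4.71 to 6.24 in fat and 13.23 to 13.29 in muscle, and MYH7 at 5.07 to 7.27 in fat and 13.23 to 13.70 in muscle. The summed intensity of the skeletal muscle markers spanned 3421.1 to 6764.2 for abdominal fat, 3712.2 to 4598.4 for subcutaneous fat and 70155.4 to 76443.5 for muscle, over 19 probe sets of 8 measured genes of 9 listed. That of the adipocyte markers, over 11 probe sets of 6 measured genes of 7 listed, was 37284.2 to 39564.0, 32863.3 to 35249.4 and 3474.4 to 7807.7 in the same tissues. On every fat array the brightest CKM and MYH7 probe sets had the highest intensities of the skeletal muscle list. The skeletal muscle sums of fat therefore do not give a share of muscle RNA. The 3'/5' intensity ratio of the array's GAPDH control, a sign of RNA integrity, was 1.26 to 1.62 in abdominal fat, 1.21 to 1.74 in subcutaneous fat and 0.937 to 1.01 in muscle. The same ratio of the actin control set the tissues much farther apart, at 2.24 to 5.69 in abdominal fat, 3.86 to 8.17 in subcutaneous fat and 0.963 to 1.04 in muscle. The summed endothelial markers were 5115.8 to 5815.7 in abdominal fat, 3799.3 to 3853.0 in subcutaneous fat and 783.7 to 922.6 in muscle. The part of RNA integrity or of these cells in the differences between fat and muscle was not tested. In bulk tissue, fewer cells of a type and less RNA per cell cannot be told apart.

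In adipose tissue set against muscle, the muscle forms of phosphofructokinase, phosphoglycerate mutase and enolase were far lower, and the widely expressed forms of the mutase and enolase were higher. On the log2 scale PGAM2 differed by -6.71 in adipose tissue, ENO3 by -5.76 and PFKM by -4.54, while PGAM1, HK1 and ENO1 rose by 2.13, 1.76 and 1.04. LDHA had probe sets in both directions, and GPI and LDHB did not pass. By limma with Benjamini-Hochberg adjustment over all probe sets, 11 of the 13 probe sets had an adjusted p under 0.05. Of these, 4 were higher in adipose tissue and 7 lower. Of all probe sets, 52.6% passed, 26.2% higher and 26.4% lower. Of the 12698 probe sets over 6 on at least 3 arrays, which include the 13, 8977 passed, 5344 higher and 3633 lower. The median difference of those 12698 was 0.19. By the brightest probe set of each gene, 7 of the 9 genes passed, 3 higher and 4 lower. The share was 61.4% of 9155 genes, 32% higher and 29.5% lower. Muscle and fat thus differ widely, and the counts of members are to be read against these shares. The arrays of fat and muscle did not overlap for 10 of the 13, against 44.8% of all probe sets. The median difference of the 13 probe sets was -0.70, against -0.06 for all. With each array centred on its median, which moved the median of all probe sets by -0.12, 39.2% of all calls were higher in fat in place of 49.8%, and the members' counts of 4 higher and 7 lower were the same. The share of higher calls moved alike for abdominal fat (40.1% in place of 50.5%) and subcutaneous fat (41.2% in place of 52.3%), each against muscle.

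**Figure D1:**
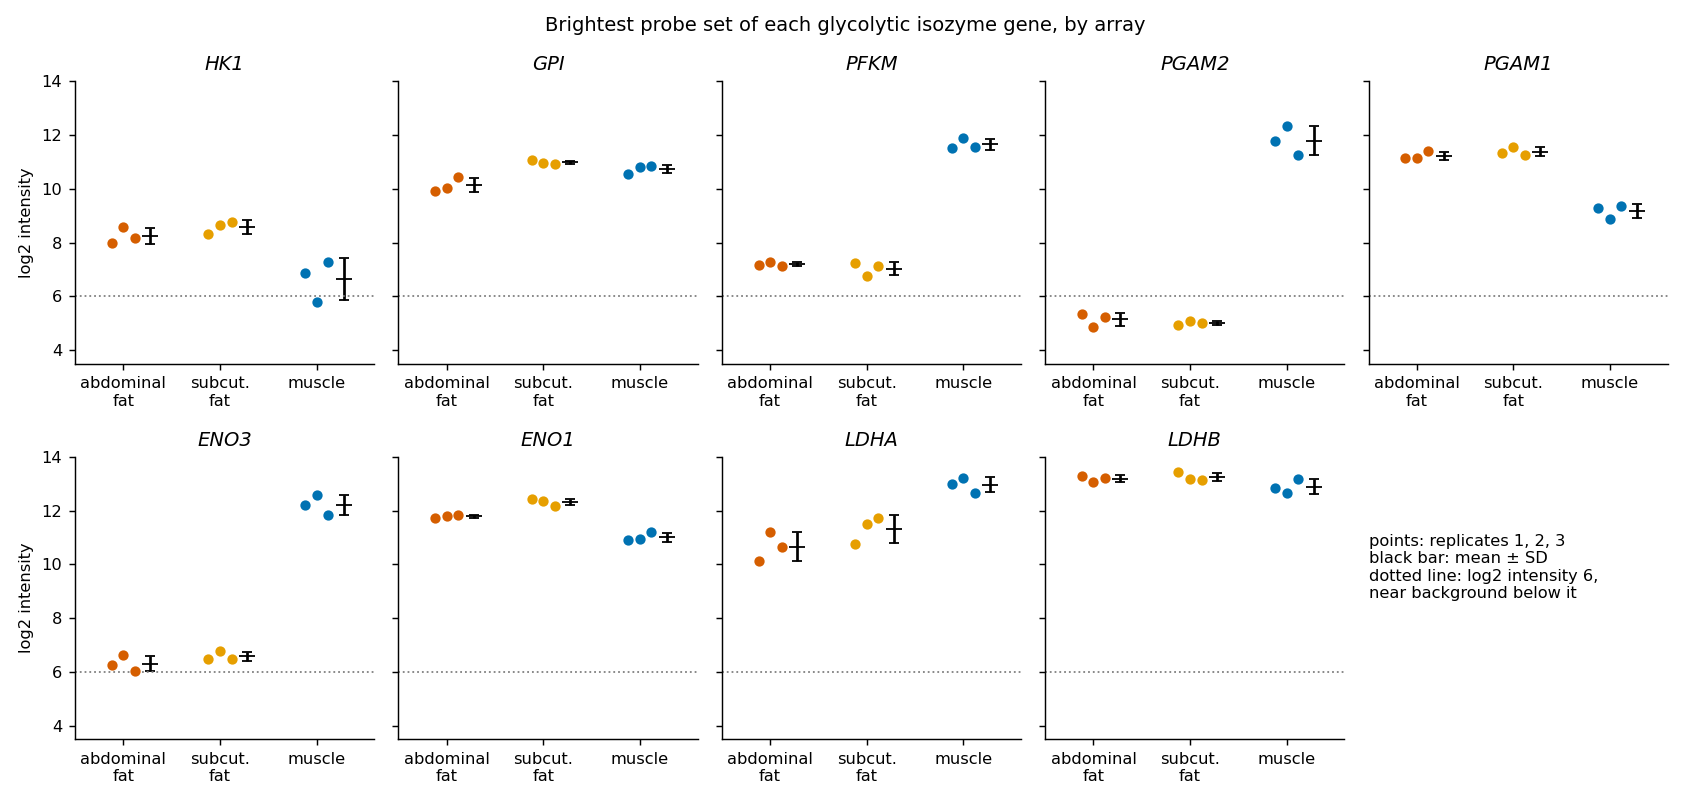
Log2 intensity (vertical axis) of the brightest probe set of each of the 9 measured genes in abdominal fat, subcutaneous fat and muscle; points are the 3 arrays of a tissue, black bars the mean ± SD, and the dotted line marks 6. PGAM2, ENO3 and PFKM lie far lower in both fat depots than in muscle, PGAM1, ENO1 and HK1 lie higher in fat, and LDHB stands near 13 in every tissue.

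Phosphoglycerate mutase, which moves a phosphate group within phosphoglycerate late in the pathway, showed the largest fitted difference among the members. PGAM2, the muscle form, read 5.34, 4.87 and 5.22 in abdominal fat, 4.94, 5.08 and 5.03 in subcutaneous fat, and 11.79, 12.32 and 11.27 in muscle. All 6 fat arrays were near background, and the lowest muscle array stood far above the highest of them. The difference of adipose tissue from muscle was -6.71 ± 0.21 (SE, adjusted p = 1.45e-08), a fall of 105-fold, which is not exact because the fat means were under 6. PGAM1, the widely expressed form, read 11.13, 11.13 and 11.40 in abdominal fat, 11.32, 11.56 and 11.26 in subcutaneous fat, and 9.29, 8.88 and 9.35 in muscle. Here the fat arrays were all above the muscle arrays, and muscle itself was well above background. The difference was 2.13 ± 0.14 (SE, adjusted p = 1.58e-06), or 4.38-fold higher in adipose tissue.

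Enolase, which makes phosphoenolpyruvate, followed the same pattern. ENO3, the muscle form, read 6.27, 6.63 and 6.05 in abdominal fat, 6.49, 6.77 and 6.47 in subcutaneous fat, and 12.19, 12.58 and 11.85 in muscle. The fat arrays stayed just over 6 and did not approach the muscle arrays, with a difference of -5.76 ± 0.18 (SE, adjusted p = 1.57e-08) or a 54.2-fold fall. Among the abdominal arrays ENO3 was highest on replicate 2 and lowest on replicate 3. So was skeletal actin, ACTA1, at 10.07 on replicate 2 and 6.41 on replicate 3. MB, MYOT, MYH7 and TNNT3 shared that order by their brightest probe sets. The summed skeletal muscle markers did too, at 5330.8, 6764.2 and 3421.1 on abdominal replicates 1, 2 and 3. Not all muscle markers shared that order: by their brightest probe sets MYH1 and CKM were highest on replicate 1, and ATP2A1 was lowest there. The CKM probe set that was lower in fat did share it, at 5.76, 6.24 and 4.71. PGAM2, another muscle form, was lowest on abdominal replicate 2, at 4.87. In subcutaneous fat ENO3 was lowest on replicate 3, and ACTA1 on replicate 1, at 8.69. The share of all probe sets with that order was not counted. The part of muscle RNA in the ENO3 level of fat was not tested. ENO1, the widely expressed form, read 11.71, 11.81 and 11.83 in abdominal fat, 12.42, 12.35 and 12.19 in subcutaneous fat, and 10.90, 10.93 and 11.21 in muscle. Every fat array was above every muscle array, and the difference was 1.04 ± 0.11 (SE, adjusted p = 3.68e-05), or 2.05-fold higher in adipose tissue.

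Phosphofructokinase was represented among the members by PFKM alone, with 3 probe sets that were all lower in fat. The brightest read 7.15, 7.28 and 7.14 in abdominal fat, 7.22, 6.75 and 7.13 in subcutaneous fat, and 11.51, 11.87 and 11.57 in muscle. The groups lay far apart, with a difference of -4.54 ± 0.14 (SE, adjusted p = 1.2e-08) or a 23.2-fold fall. The second brightest differed by -4.99 ± 0.14 (SE, adjusted p = 9.74e-09) and the dimmest by -3.38 ± 0.17 (SE, adjusted p = 3.71e-07). Both were near background in fat, with means of 5.56 and 4.38 in abdominal fat and 5.70 and 4.08 in subcutaneous fat, so only the brightest probe set gives a size above background on both sides. The liver and platelet forms of the same enzyme, PFKL and PFKP, are no members but moved the other way. PFKP averaged 7.69 ± 0.30 for abdominal fat, 8.35 ± 0.23 for subcutaneous fat and 5.72 ± 0.35 for muscle (SD, n = 3 each), a difference of 2.30 ± 0.19 (SE, adjusted p = 5.84e-06) from a muscle mean near background. PFKL averaged 7.84 ± 0.15, 8.24 ± 0.13 and 6.70 ± 0.05 in the same tissues (SD, n = 3 each) and was 1.34 ± 0.11 higher in adipose tissue (SE, adjusted p = 6e-06). PFKL was named after its values were seen, for its place at the PFKM step.

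At the entry of the pathway, HK1 read 7.97, 8.57 and 8.17 in abdominal fat, 8.30, 8.66 and 8.77 in subcutaneous fat, and 6.88, 5.78 and 7.28 in muscle. All fat arrays were above all muscle arrays, and muscle replicate 2 stood apart at a level near background. The difference was 1.76 ± 0.29 (SE, adjusted p = 0.000632), or 3.39-fold higher in adipose tissue, and 1.33 without muscle replicate 2. GPI, the isomerase of the next step, read 9.93, 10.04 and 10.44 in abdominal fat, 11.05, 10.96 and 10.92 in subcutaneous fat, and 10.55, 10.79 and 10.83 in muscle. The depots lay on opposite sides of muscle, and their mean differed from it by -0.16 ± 0.13 (SE, adjusted p = 0.33, 95% confidence interval -0.47 to 0.14).

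Lactate dehydrogenase gave no single answer for LDHA. Its brightest probe set read 10.12, 11.20 and 10.66 in abdominal fat, 10.74, 11.52 and 11.73 in subcutaneous fat, and 12.99, 13.22 and 12.67 in muscle. Fat and muscle did not overlap, and the difference was -1.96 ± 0.27 (SE, adjusted p = 0.000188), a 3.90-fold fall in adipose tissue. The dimmest read 8.86, 8.76 and 9.12 in abdominal fat, 9.79, 9.64 and 9.63 in subcutaneous fat, and 9.90, 10.37 and 9.73 in muscle. Its subcutaneous and muscle arrays overlapped, and the difference was -0.70 ± 0.15 (SE, adjusted p = 0.00344). The second brightest went the other way: it read 10.87, 10.36 and 10.83 in abdominal fat, 10.31 on each subcutaneous array, and 9.84, 9.32 and 9.64 in muscle, with every fat array above every muscle array. Its difference was 0.90 ± 0.15 (SE, adjusted p = 0.000722). The direction of LDHA therefore rests on the probe set. LDHB, the H subunit, was near the top of the scale in all tissues, at 13.29, 13.05 and 13.23 in abdominal fat, 13.43, 13.17 and 13.15 in subcutaneous fat, and 12.85, 12.66 and 13.18 in muscle. Muscle replicate 3 overlapped the fat arrays. The difference was 0.32 ± 0.14 (SE, adjusted p = 0.072, 95% confidence interval 0.02 to 0.63 before adjustment). It passed without muscle replicate 3, at 0.46 (adjusted p = 0.014).

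**Figure D2:**
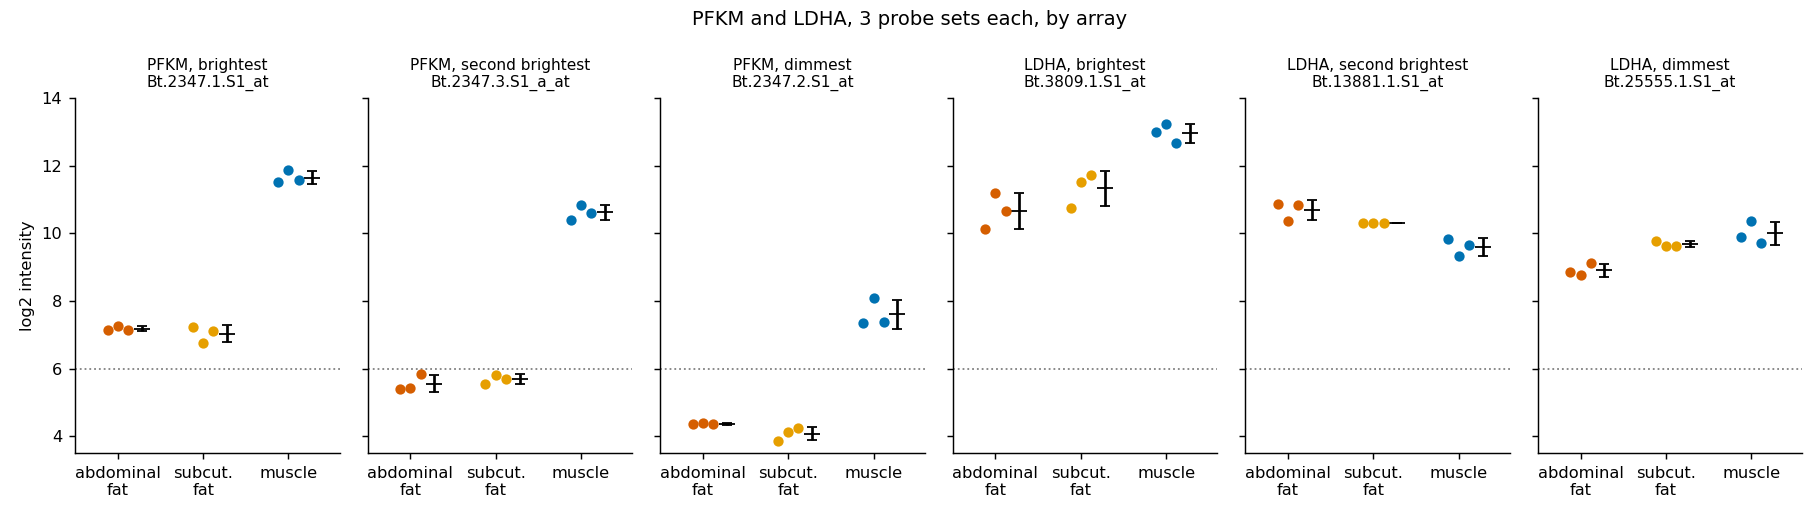
Log2 intensity (vertical axis) of the 3 PFKM and the 3 LDHA probe sets in abdominal fat, subcutaneous fat and muscle; points are arrays, black bars the mean ± SD of 3 arrays, and the dotted line marks 6. The PFKM probe sets are all lower in fat, while the second brightest LDHA probe set is higher in fat and the other two are lower in fat on average.

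**Figure D3:**
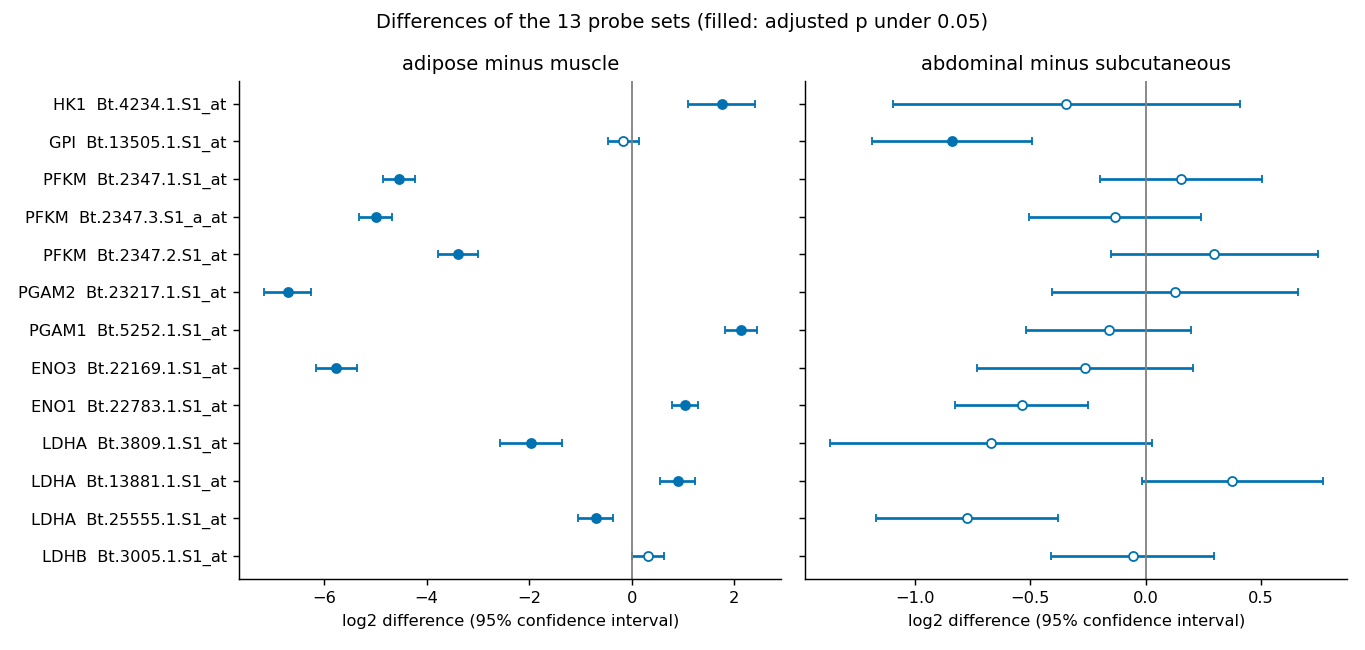
Log2 differences (horizontal axis) of the 13 probe sets for adipose tissue minus muscle and for abdominal minus subcutaneous fat, with 95% confidence intervals; filled points passed an adjusted p of 0.05. In adipose tissue against muscle 4 filled points lie above 0 and 7 below, and between the depots only GPI is filled.

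The change of each muscle-type form was then set against that of its counterpart within the same array. The log2 ratio of the isozymes was expressed relative to its mean over the muscle arrays, because the level of a probe set cannot be compared with that of another. The ratio of PGAM2 to PGAM1 was -8.41, -8.88 and -8.80 in abdominal fat, -9.00, -9.10 and -8.85 in subcutaneous fat, and -0.12, 0.82 and -0.70 in muscle. No fat array came near a muscle array, and the mean was -8.84 ± 0.24 in fat (SD, n = 6) against an SD of 0.77 around 0 in muscle (n = 3). With values under 6 set to 6 it was -7.92. The ratio of ENO3 to ENO1 was -6.63, -6.38 and -6.97 in abdominal fat, -7.12, -6.77 and -6.91 in subcutaneous fat, and 0.10, 0.45 and -0.55 in muscle, with a mean of -6.80 ± 0.26 in fat (SD, n = 6). The ratio of LDHA to LDHB, by the brightest LDHA probe set, was -3.24, -1.92 and -2.63 in abdominal fat, -2.75, -1.71 and -1.48 in subcutaneous fat, and 0.07, 0.50 and -0.57 in muscle. Its mean in fat was -2.29 ± 0.69 (SD, n = 6), and -0.91 when all LDHA probe sets were averaged. The second brightest LDHA probe set went against this, with a rise of 0.90 in fat that exceeded the 0.32 of LDHB. A ratio by that probe set alone was not tested. In each of the 3 pairs, by the brightest probe sets, all 6 fat arrays were below all 3 muscle arrays. Each gave p = 0.0238 by an exact two-sided permutation test of 6 against 3 arrays, adjusted p = 0.0238 over the 3 pairs, which is the smallest value this design allows. For PGAM2 to PGAM1 and ENO3 to ENO1 that p was fixed by the single-gene values. All fat arrays lay below muscle for the muscle form and above it for its counterpart, so the test adds no evidence there. A pair for HK2 and HK1 could not be formed.

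**Figure D4:**
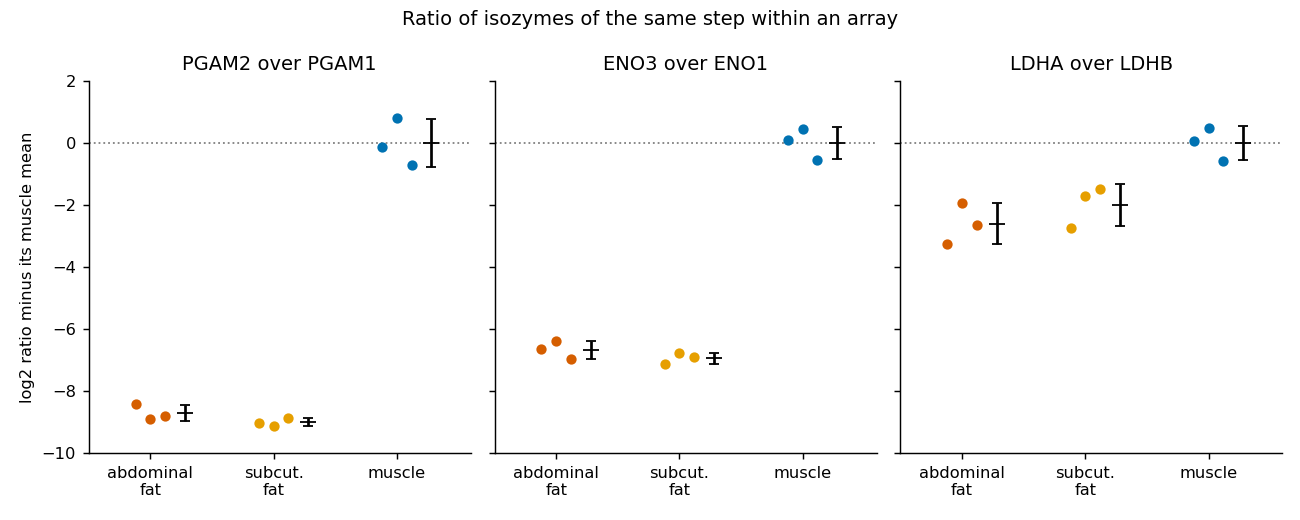
Log2 ratio of PGAM2 to PGAM1, ENO3 to ENO1 and LDHA to LDHB within each array, minus its mean over the muscle arrays (vertical axis), in abdominal fat, subcutaneous fat and muscle; points are arrays and black bars the mean ± SD of 3. Fat arrays lie between -8.41 and -9.10 for PGAM2 to PGAM1, between -6.38 and -7.12 for ENO3 to ENO1 and between -1.48 and -3.24 for LDHA to LDHB, below every muscle array. LDHA is shown by its brightest probe set only.

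Each depot was also set against muscle by itself. The 2 comparisons share the muscle arrays. PGAM2 differed by -6.65 in abdominal and -6.77 in subcutaneous fat, ENO3 by -5.89 and -5.63, and the brightest PFKM probe set by -4.46 and -4.61. PGAM1 differed by 2.05 in abdominal and 2.21 in subcutaneous fat, HK1 by 1.59 and 1.93, and ENO1 by 0.77 and 1.31. All of these passed in both depots, the highest adjusted p being 0.00344. Of the 13 probe sets 12 passed in abdominal fat, 4 higher and 8 lower, where 46.6% of all did, 23.5% higher and 23.1% lower. In subcutaneous fat 10 passed, 4 higher and 6 lower, where 47.0% of all did, 24.6% higher and 22.4% lower. Of the 12698 probe sets over 6 on at least 3 arrays, 8356 passed in abdominal and 8390 in subcutaneous fat. The arrays did not overlap with muscle for 12 of the 13 in abdominal fat and 11 in subcutaneous fat, against 54.9% and 54.3% of all probe sets. GPI fell by 0.58 ± 0.16 in abdominal fat (SE, adjusted p = 0.0117), while its difference of 0.25 ± 0.16 in subcutaneous fat did not pass (adjusted p = 0.206). The dimmest LDHA probe set likewise passed in abdominal fat (-1.09, adjusted p = 0.000683) and not in subcutaneous fat (-0.31, adjusted p = 0.173). LDHB passed in neither depot, at 0.30 and 0.35.

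Between the depots GPI was the only member to pass the direct test. It averaged 10.14 ± 0.27 in abdominal and 10.98 ± 0.07 in subcutaneous fat (SD, n = 3 each), and every abdominal array was below every subcutaneous array. The difference was -0.84 ± 0.16 (SE, adjusted p = 0.0388), or 1.79-fold lower in abdominal fat. It was 1 of 13 probe sets to pass, and none passed as higher in abdominal fat. Of all probe sets 1.31% passed, 0.641% higher and 0.666% lower in abdominal fat. The endothelial and the adipocyte marker sums given above also separated the depots without overlap, both higher in abdominal fat. Their part in the depot differences was not tested. The call was lost without abdominal replicate 1 (adjusted p = 0.117) or 2 (0.126), without subcutaneous replicate 1 (0.114), 2 (0.0994) or 3 (0.0965), and without muscle replicate 1 (0.0542). ENO1 and the dimmest LDHA probe set pointed the same way and did not overlap between depots. Their differences were -0.54 ± 0.13 (SE, adjusted p = 0.0795) and -0.78 ± 0.18 (SE, adjusted p = 0.0688). The second brightest LDHA probe set and the dimmest PFKM probe set did not overlap either, but were higher in abdominal fat. Their differences were 0.38 (adjusted p = 0.37) and 0.30 (adjusted p = 0.577). In all, 5 of the 13 did not overlap between abdominal and subcutaneous arrays, against 23.6% of all probe sets. PGAM2 differed by 0.13 between the depots (95% confidence interval -0.41 to 0.66), PGAM1 by -0.16 (-0.52 to 0.20), ENO3 by -0.26 (-0.73 to 0.20) and the brightest PFKM probe set by 0.15 (-0.20 to 0.51). HK1 differed by -0.34 (95% confidence interval -1.10 to 0.41) and LDHB by -0.06 (-0.41 to 0.30). Of these 6 genes only HK1 had an interval that reached the size of the GPI difference. The interval of GPI itself was -1.19 to -0.49, and those of PGAM1 and ENO3 overlapped it too. LDHA, by its brightest probe set, differed by -0.67 (95% confidence interval -1.37 to 0.03), which also reached that size. The isozyme ratios differed between abdominal and subcutaneous fat by 0.29 for PGAM2 to PGAM1, 0.27 for ENO3 to ENO1 and -0.62 for LDHA to LDHB. Their exact two-sided permutation p-values were 0.2, 0.3 and 0.3, each 0.3 adjusted over the pairs, where 3 against 3 arrays cannot go below 0.1.

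In order of level, then, PGAM2, ENO3 and PFKM were highest in muscle, with no passing difference between the 2 depots below it. PGAM1 and HK1 were highest in fat, with no passing difference between the depots, and lowest in muscle. ENO1 ran from subcutaneous through abdominal fat to muscle, and only the step between the depots did not pass. GPI ran from subcutaneous fat through muscle to abdominal fat, and the step from subcutaneous fat to muscle did not pass. LDHA, by its brightest probe set, was highest in muscle. Its depot difference of -0.67 did not pass, with a 95% confidence interval of -1.37 to 0.03 that leaves a large difference open. For LDHB no step passed.

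Within a tissue the members did not vary alike. Muscle replicate 2 had the highest of the muscle values for 7 of the 13 probe sets, including PGAM2, ENO3 and all of PFKM, and the lowest for 4, PGAM1, HK1, LDHB and the second brightest of LDHA. For 11 of the 13 it was thus the muscle array farthest from fat. Adipocyte markers moved with it: their summed intensity was 7807.7, 3474.4 and 6483.7 on muscle replicates 1, 2 and 3. Their part in these values was not tested. Without muscle replicate 2, PGAM2 differed by -6.45, ENO3 by -5.57, PFKM by -4.43 and PGAM1 by 1.99, all still passing. Among the fat arrays the brightest LDHA probe set varied most, with an SD of 0.54 in abdominal and 0.52 in subcutaneous fat (n = 3 each). The summed macrophage markers, 7 probe sets of 6 measured genes of 7 listed, ordered the arrays of each depot as LDHA and HK1 did. Those sums were 4863.9, 10048.0 and 8183.7 in abdominal and 5139.3, 10219.8 and 10546.0 in subcutaneous fat, against 862.3 to 2177.6 in muscle. That order was shared by 2 of the 13 probe sets, or 15.4%, and by 3.36% of all. It was noticed after the values were seen, and the part of macrophages was not tested.

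The profiles of other genes over the 9 arrays were ranked by their root mean square difference from each member, after centring each profile on its own mean, among 9146 genes. Closest to PGAM2 were RPL3L, a ribosomal protein of striated muscle (0.26 on the log2 scale), and ASB12 (0.31). UNC45B, a chaperone of muscle myosin (0.18), and RTN2 (0.25) were closest to ENO3, and TMEM38A, a cation channel of the sarcoplasmic reticulum (0.13), and UNC93A (0.15) to PFKM. All 6 of these genes had means under 6 in both fat depots, so their likeness rests partly on values near background. Closest to PGAM1 were CFL1, cofilin, which cuts actin filaments (0.09), and a probe set annotated PRL (0.10). ENO1 was closest to NICN1 (0.08) and RMND5B (0.10), HK1 to the kinase ABL1 (0.19) and PAPSS1 (0.20), and GPI to RAB22A and SLC43A1 (0.17 each). LDHA was closest to MRPS25 and PTPMT1 (0.26 each), and LDHB, which varied little, to GGNBP2 (0.05) and SON (0.06).

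The other genes of the pathway were read from 4 lists, with the brightest probe set of each gene. By that choice 61.4% of 9155 genes passed between adipose tissue and muscle, 32% higher and 29.5% lower, with a median difference of -0.02. Of 19 other glycolytic enzymes 15 were measured. In adipose tissue 4 of them rose and 7 fell, and the median was -0.25. Several of the lower ones are enzymes that most tissues use. PKM, the pyruvate kinase of muscle and many other tissues, averaged 6.96 ± 0.10 for abdominal fat, 7.82 ± 0.41 for subcutaneous fat and 9.11 ± 0.40 for muscle (SD, n = 3 each), and differed by -1.72 ± 0.20 (SE, adjusted p = 7.19e-05). Triose phosphate isomerase, TPI1, differed by -1.47 (adjusted p = 1.41e-05) and GAPDH, which makes NADH in the pathway, by -1.37 (adjusted p = 1.09e-05). The 3'/5' ratio of the GAPDH controls also differed between the tissues, and its part in the GAPDH difference was not tested. PFKP was the one most raised in fat.

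Fructose bisphosphatase, which runs the phosphofructokinase step backwards, had a muscle form and a widely studied liver form that moved in opposite directions. FBP2, the muscle form, read 5.16, 4.56 and 4.56 in abdominal fat, 4.24, 4.13 and 4.68 in subcutaneous fat, and 10.02, 11.49 and 9.28 in muscle. All fat arrays were near background, and the difference was -5.71 ± 0.40 (SE, adjusted p = 2.36e-06). FBP1, the liver form, averaged 9.09 ± 0.54 for abdominal fat, 7.76 ± 0.32 for subcutaneous fat and 5.64 ± 0.26 for muscle (SD, n = 3 each), a difference of 2.78 ± 0.24 (SE, adjusted p = 7.98e-06) from a muscle mean near background. They belong to a list of 7 enzymes that set the fructose bisphosphate level, of which 6 were measured. In adipose tissue 2 rose and 3 fell, and the median was -0.85. The kinase and phosphatase PFKFB1 fell by 1.98 (adjusted p = 0.000444), to means near background of 5.83 in abdominal and 4.92 in subcutaneous fat. PFKFB3, another form of it, was 1.49 ± 0.55 higher in adipose tissue (SE, adjusted p = 0.0448), but muscle replicate 2 read 10.21 and overlapped the fat arrays. Its call was lost without abdominal replicate 1 (adjusted p = 0.0624) or 2 (0.0792), subcutaneous replicate 2 (0.0801) or 3 (0.0816), or muscle replicate 1 (difference 0.89, 0.218) or 3 (0.119), and with arrays centred on their medians (0.0555).

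Of 12 carriers of glucose and lactate 8 were measured. In adipose tissue 1 rose and 4 fell, and the median was -0.29. Those that fell numbered 2 without abdominal replicate 1 or 2, subcutaneous replicate 1 or 2, or muscle replicate 1. SLC2A4, the insulin-responsive glucose carrier GLUT4 of muscle and fat, averaged 7.05 ± 0.10 for abdominal fat, 6.53 ± 0.40 for subcutaneous fat and 8.56 ± 0.62 for muscle (SD, n = 3 each), a difference of -1.77 ± 0.25 (SE, adjusted p = 0.000245). SLC16A3, the lactate exporter MCT4, fell by 1.26 by its brightest probe set (adjusted p = 0.00288), to an abdominal mean near background (5.66). Its other probe sets, near background in all tissues, differed by -0.44 (adjusted p = 0.0105) and -0.27 (adjusted p = 0.0827). BSG, the chaperone that brings lactate carriers to the cell surface, was 1.19 higher in adipose tissue by its brightest probe set (adjusted p = 0.000273), while its other probe set differed by -0.53 (adjusted p = 0.0228). SLC2A1, the basal glucose carrier GLUT1, differed by -0.56 (adjusted p = 0.044). That call was lost when any one array other than muscle replicate 2 was left out, with adjusted p from 0.0589 to 0.116, and the difference was -0.24 without muscle replicate 3.

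Of 14 genes that bring pyruvate into the mitochondrion and on to acetyl-CoA 12 were measured. In adipose tissue none rose and 8 fell, and the median was -0.86. MPC2, a subunit of the mitochondrial pyruvate carrier, averaged 9.90 ± 0.17 for abdominal fat, 10.14 ± 0.10 for subcutaneous fat and 11.80 ± 0.15 for muscle (SD, n = 3 each), a difference of -1.78 ± 0.12 (SE, adjusted p = 1.69e-06). PDHB and DLAT, subunits of the pyruvate dehydrogenase complex, differed by -1.47 (adjusted p = 7.56e-06) and -1.44 (adjusted p = 0.000463). PDP1, the phosphatase that switches the complex on, fell by 1.40 (adjusted p = 3.56e-05). The other PDHB probe sets, near background in all tissues, differed by -0.12 (limma, adjusted p = 0.382) and -0.17 (limma, adjusted p = 0.372). Those of DLAT differed by -0.88 and -0.62 and that of PDP1 by -0.39, all passing.

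Between the depots no gene of the 4 lists passed by limma, where 1.5% of all genes did, 0.808% higher and 0.688% lower in abdominal fat. At an unadjusted p of 0.05 the counts were 8 of 15 other glycolytic enzymes, 2 of 6 enzymes of the fructose bisphosphate list, 2 of 8 carriers and 2 of 12 genes of pyruvate entry, where 18% of all genes had such a p. In the same order the medians of abdominal minus subcutaneous fat were -0.33, 0.36, -0.16 and -0.08, against -0.04 for all genes. Among the other glycolytic enzymes PKM differed by -0.86 (adjusted p = 0.119), about as much as GPI. HK3 went the other way, at 0.73 (adjusted p = 0.104). The gene with the smallest p in each list was, in the same order, GAPDH (-0.55 in abdominal minus subcutaneous fat, adjusted p = 0.097), FBP1 (1.33, adjusted p = 0.0512), BSG (-0.54, adjusted p = 0.239) and the pyruvate dehydrogenase kinase PDK4 (0.91, adjusted p = 0.0715).

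**Figure D5:**
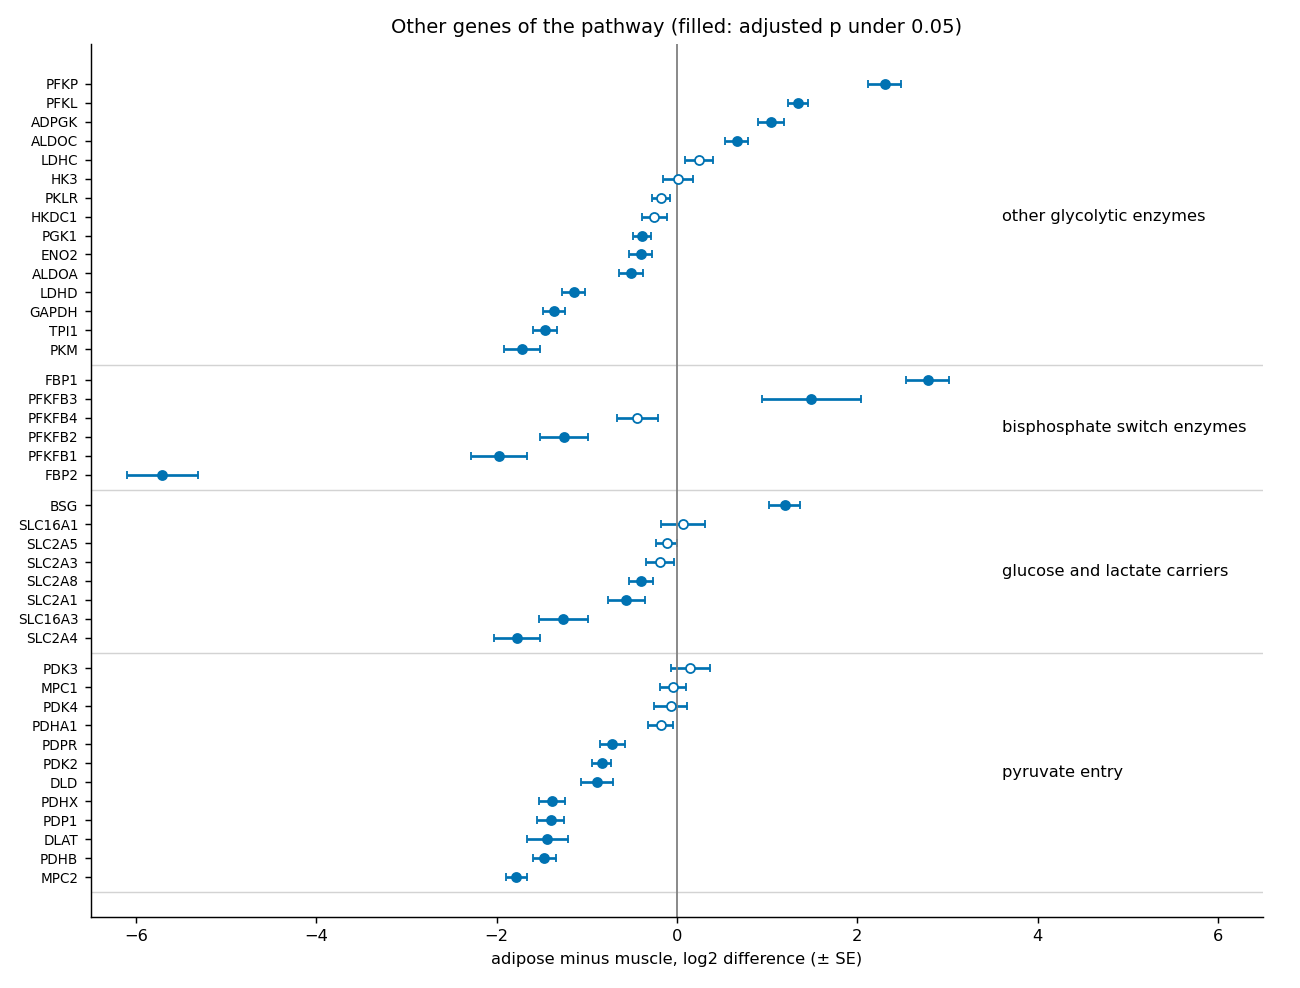
Log2 differences of adipose tissue minus muscle (horizontal axis) for every measured gene of the 4 pathway lists, by its brightest probe set; filled points passed an adjusted p of 0.05. FBP2 lies far to the left at -5.71, FBP1 and PFKP lie farthest to the right at 2.78 and 2.30, and no filled point of the pyruvate entry list lies above 0.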

How the data were processed

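Total RNA was hybridised to 1-colour Affymetrix bovine arrays, 1 array per sample. Per the submitters' processing notes the values were made with RMA, and no source used here gives its version or settings. The values the authors deposited are intensities on a linear scale, 3.06 to 17450.5, and array medians of log2 intensity were 5.75 to 5.92, so the arrays were already normalized. RMA pulls weak values together and makes arrays alike, so fold changes of dim probe sets are understated. The number of arrays limits the precision. Groups came from the tissue labels. The labels name an RNA kit for adipose samples only.

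Of 24128 probe sets 112 controls were left out. Of the others 13292 had 1 gene symbol in the platform annotation, 86 several and 10638 none. The log2 intensities of all 9 arrays were fitted in limma 3.58.1 (R 4.3.3) with a mean per tissue, and adipose tissue was the mean of both depots. A call is a Benjamini-Hochberg adjusted p under 0.05 over 24016 probe sets. Isozyme ratios were tested by exact permutation in scipy 1.17.1, adjusted over 3 pairs; a planned pair of HK2 and HK1 had no HK2 probe set. Each gene is represented by its brightest probe set, by the mean of all arrays. The text names all members, up to 4 passing genes of each list by size of the adipose difference (the smallest p where none passed), and the 2 most similar profiles per member. The members and lists were chosen with earlier results of these data known. The fit was tested on simulated data. Alternatives were a trended prior, a filter of log2 intensity over 6 on at least 3 arrays, centred or quantile-normalized arrays, array weights, a stricter threshold, fits on the arrays compared, other probe sets, a block on title numbers, and leaving out each array. Sequences were not used here.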

Additional observations from a re-analysis of the deposited data

Results flagged for a closer look

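GPI is marked because its depots stood on opposite sides of muscle and the test of the difference between them passed. GPI differed from muscle by -0.58 in abdominal fat, with all 3 arrays below all 3 muscle arrays, and by 0.25 in subcutaneous fat, with all 3 arrays above them. The difference of abdominal minus subcutaneous fat, which equals the difference of these effects, was -0.84 ± 0.16 (SE, limma, adjusted p = 0.0388). Both effects share the muscle arrays. The call did not hold in a fit of the fat arrays alone (adjusted p = 0.0511), or when any one of 6 single arrays was left out, and the difference was negative in every alternative run, between -0.73 and -0.99.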

How the results depend on the processing

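Between adipose tissue and muscle, the 11 passing probe sets of 13 became 12 with a trended prior, with array weights and without muscle replicate 3, and stayed 11 in number in the other alternatives run. By limma with adjusted p-values, LDHB passed with a trended prior (0.0469), with array weights (0.0327) and without muscle replicate 3 (0.014). The direction of LDHA reversed with its second brightest probe set (0.90, and 0.38 between depots). Between the depots 314 probe sets passed, against 36 at an adjusted p of 0.01, 1034 with array weights, 118 with the replicate block and 57 to 491 without single arrays. For the members the count of 1 became 0, 3 and 0 under the same 3 settings and 0 to 3 without single arrays. ENO1 passed between the depots with array weights (0.0255) and without muscle replicate 3 (0.0479). Small depot differences reversed for PGAM2 with the replicate block (-0.0398), for PFKM with its second brightest probe set (-0.13), and for LDHB without abdominal replicate 2 (0.01) or subcutaneous replicate 1 (0.0336), with a range of -0.11 to 0.03 over single arrays left out. The cause was not tested. Leaving out single arrays gave ratio differences of -9.19 to -8.43 for PGAM2 to PGAM1, -7.07 to -6.57 for ENO3 to ENO1 and -2.57 to -2.04 for LDHA to LDHB in adipose tissue against muscle. Exact permutation p was 0.0357 without a fat array and 0.0714 without a muscle array, in each case the smallest possible. The pair of HK2 and HK1 could not be run. The arrays share leading title numbers, whose meaning the labels do not give. The deviations of same-numbered arrays correlated at 0.04 to 0.36, above 0 in all 7 pairs but not over 0.1 in 2, against 5 of 20 other pairs above 0, and not every array correlated best with its own number. That is a hint of a shared source from the data, not from the design, and the pairing was not used. With the replicate block 11930 probe sets passed between adipose tissue and muscle, and the members passing were 11 for adipose tissue, 12 for abdominal fat and 10 for subcutaneous fat, each against muscle. The block ended the call of GPI between depots (-0.98, adjusted p = 0.0653) and of SLC2A1 (adjusted p = 0.0561). List counts, an alternative chosen after seeing the data, were 4 higher and 6 to 9 lower for the other glycolytic enzymes, 1 to 2 and 3 to 4 for the fructose bisphosphate list, 1 and 2 to 4 for carriers, and 0 and 7 to 8 for pyruvate entry. Weak signal limits PGAM2, FBP2, PFKFB1 and 2 PFKM probe sets in fat, and SLC16A3 in abdominal fat.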

Other observations

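The genome annotation (ARS-UCD2.0, used for neighbours only) places HKDC1 next to HK1 and LDHC next to LDHA, and no members beside each other. HKDC1, a hexokinase relative, had means of 3.84 for abdominal fat, 4.02 for subcutaneous fat and 4.18 for muscle, and its difference of -0.25 between adipose tissue and muscle did not pass (limma, adjusted p = 0.147). LDHC, the testis form of lactate dehydrogenase, averaged 2.30, 2.37 and 2.09 in the same tissues, with a difference of 0.25 (limma, adjusted p = 0.207). Both were near background in all tissues.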
